A study of Homo sapiens with 4 samples.

Results

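The E2F transcription factors and the RB pocket proteins were examined in MDA-MB-231 cells, a widely used human line from a breast cancer without estrogen, progesterone and HER2 receptors (triple-negative). The members are the genes E2F1, E2F2, E2F3, E2F4, E2F5, E2F7, E2F8, RB1, RBL1 and RBL2, and every row of the deposited table that carries one of these symbols was taken. All 10 members were listed, with 32 of the 43596 transcripts and among 15113 gene symbols. Cells were exposed for 24 h to DMSO, the solvent, or to 10 µM KH-3, a small molecule inhibitor of the RNA-binding protein HuR, and mRNA was sequenced from 2 libraries per condition, biological duplicates by the study's methods. All 4 libraries came from this 1 line, and the labels give no genetic change. A further group at 5 µM KH-3 in the study's methods was not analysed here.

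The table gives a single level per transcript, the authors' mean normalized read count, which is their average over libraries after depth correction. It has no value per library, and the sources used here do not say over which libraries the authors averaged. The values below therefore have no SD and no n, DMSO and KH-3 cannot be told apart in them, and no difference between the conditions is described. Library totals are unknown as well. The lowest mean normalized read count in the table was 7.34 and the median over transcripts was 50.8. Abundant transcripts can be without a row too. ALDOA, a glycolytic enzyme of most cells, was listed at 46.9 normalized reads per kb from 6 transcripts, whereas ENO1 of the same pathway was listed at 22379. The levels and shares below therefore cover listed transcripts only, and neither a missing row nor a low level can be read as low expression.

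E2F proteins bind DNA next to the start sites of genes that cells need for DNA synthesis and division, mostly as a dimer with a DP protein. E2F1, E2F2 and E2F3 are the activators of the family. E2F4 and E2F5 mainly repress, together with pocket proteins, and E2F7 and E2F8 repress without a DP partner and without a pocket protein. The pocket proteins RB1, RBL1 (p107) and RBL2 (p130) hold E2Fs and recruit repressive complexes until cyclin-dependent kinases phosphorylate them, which makes this circuit the gate from G1 into S phase. Loss of RB1 is common in human cancer.

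To compare genes of unequal length, the mean normalized read count of each transcript was divided by its length in kb and summed over the transcripts of a gene. This summed level is given as normalized reads per kb. Across all listed genes its median was 108, with quartiles at 27.4 and 316. The members reached from 39.0 to 1117 normalized reads per kb, a 28.6-fold range, with a median of 310. Of the 10 members, 9 lay above the median gene and 5 above the upper quartile, and their median percentile among all genes was 74.6.

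**Figure D1:**
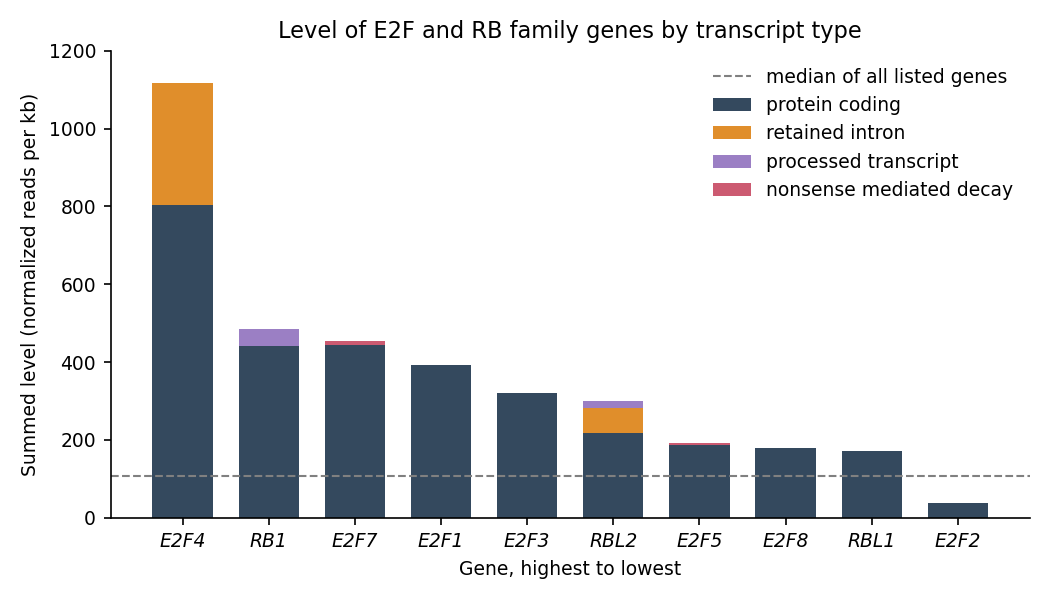
Bars give the summed level of each member in normalized reads per kb on a linear axis, stacked by transcript type, and the dashed line is the median of all listed genes at 108. E2F4 stood highest at 1117, E2F2 was the sole member under the line at 39.0, and E2F4 and RBL2 carried the visible retained intron shares. There are no error bars because the table has no value per library.

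The repressor E2Fs, the largest group with 4 genes, held the largest share of the family's summed level, and most of theirs was that of E2F4. Together E2F4, E2F5, E2F7 and E2F8 reached 1943 normalized reads per kb, 53.2% of the total over the 10 members. The 3 pocket proteins reached 957, or 26.2%, and the 3 activators 753, or 20.6%. The groups overlapped in level, since members of the repressors ran from 180 to 1117, of the pocket proteins from 172 to 484, and of the activators from 39.0 to 394 normalized reads per kb. Their medians per gene were close, at 323 for the repressors, 300 for the pocket proteins and 320 for the activators.

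In order of summed level, E2F4 was first, followed by RB1, E2F7, E2F1, E2F3, RBL2, E2F5, E2F8, RBL1 and E2F2. E2F4 stood 2.31-fold above RB1, and RBL1 4.42-fold above E2F2. The steps between the other neighbours were smaller, between 1.04-fold and 1.56-fold. With no spread over libraries, no neighbours in this order can be said to differ. The steps of 1.07-fold between RB1 and E2F7, between E2F3 and RBL2 and between E2F5 and E2F8 were among the smallest, along with that of 1.04-fold between E2F8 and RBL1.

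**Figure D2:**
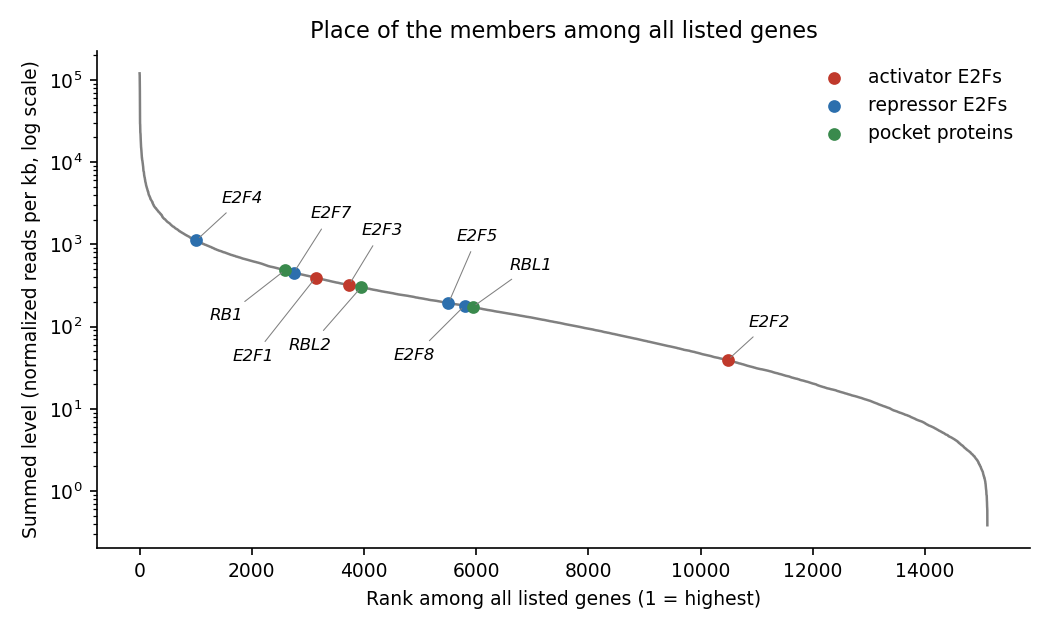
The grey line gives the summed level of all 15113 listed genes in normalized reads per kb, on a log scale, against their rank, and the coloured points are the 10 members by role. E2F4 lay at rank 1012 and E2F2 at rank 10481, with the other members between ranks 2592 and 5936.

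Among the activators, E2F1, the factor first tied to RB1, had a summed level of 394 normalized reads per kb, higher than 79.2% of all listed genes. The gene lies at chr20:33675477-33686385 on the minus strand (hg38). Its single listed transcript, E2F1-001 (ENST00000343380.5), has 7 exons and a coding sequence of 437 codons, and its mean normalized read count was 986. E2F3 came next at 320 normalized reads per kb, percentile 75.3, from 3 coding transcripts. It lies at chr6:20401879-20493714 on the plus strand. E2F2, which shares the activator role, was the lowest member at 39.0 normalized reads per kb, percentile 30.7. Its single transcript, E2F2-001 (ENST00000361729.2), lies at chr1:23506438-23531233 on the minus strand, with 202 as its mean normalized read count over 5191 bases. Per kb, E2F1 was 10.1-fold above E2F2.

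E2F3 is expressed from a pair of start sites, which give a long and a short protein with different first exons. The listed transcripts separate these. E2F3-201 (ENST00000535432.2), which starts at base 20403679 of chr6 and codes for 334 codons, held 63.6% of the gene's level, with 204 normalized reads per kb from a mean normalized read count of 902. E2F3-001 (ENST00000346618.7), which starts 1800 bases upstream and codes for 465 codons, held 29.4%, with 94.2 normalized reads per kb from 447. The transcript from the internal start was thus listed at 2.16 times the level of the upstream one. The third transcript, also coding, held 6.95%. The transcripts share most of their exons and the shared reads were divided by the authors' counting model, so this ratio is an estimate without an error.

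E2F4 is the E2F of resting cells, where it sits on promoters together with RBL2. At 1117 normalized reads per kb it was 10.3 times the median gene and at percentile 93.3. The gene lies at chr16:67192155-67198918 on the plus strand. Its coding transcript E2F4-001 (ENST00000379378.7), with 10 exons and 413 codons, had a mean normalized read count of 1686 and held 72.0% of the level. The remainder was listed on 4 retained intron transcripts. The largest of them, E2F4-004 (ENST00000567228.1), is 757 bases long and held 21.0%, from a mean normalized read count of 177. Its share of the gene's reads, without scaling by length, was 8.87%. With the coding transcripts alone, the level of E2F4 was 804 normalized reads per kb and still the highest of the family.

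E2F5, the closest relative of E2F4, was 5.79-fold lower per kb at 193, percentile 63.6. The gene lies at chr8:85177154-85217158 on the plus strand. Its leading transcript held the smallest share of any member. The coding transcripts E2F5-002 (ENST00000418930.6), E2F5-003 (ENST00000521429.5), E2F5-001 (ENST00000416274.6) and E2F5-005 (ENST00000520225.1) held 38.0%, 22.9%, 22.0% and 14.5% of the level. Their coding sequences have 345, 173, 346 and 129 codons, so E2F5-003 and E2F5-005 have much shorter coding sequences than the other two. Without scaling by length, E2F5-005, of 604 bases, took 5.22% of the gene's reads. A transcript marked for nonsense mediated decay held 2.69%. The mean normalized read count of the leading transcript was 138.

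E2F7 and E2F8 are the atypical E2Fs, which carry 2 DNA-binding domains each and restrain E2F1 in S and G2 phase. E2F7 was listed at 454 normalized reads per kb, percentile 81.8, and E2F8 at 180, percentile 61.7, a ratio of 2.53. E2F7 lies at chr12:77021248-77065569 on the minus strand. Its transcript E2F7-001 (ENST00000322886.11), with 13 exons and 911 codons, held 90.9% of the level, and its mean normalized read count of 2368 was the highest of any member transcript. The shorter isoform E2F7-004, with 728 codons, held 1.89%. E2F8 lies at chr11:19224063-19241620 on the minus strand. Its 3 transcripts E2F8-002 (ENST00000250024.8), E2F8-001 (ENST00000527884.5) and E2F8-201 (ENST00000620009.4) held 43.8%, 33.8% and 22.4%, and all have a coding sequence of 867 codons.

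RB1, the retinoblastoma protein that binds the activator E2Fs, was the leading pocket protein. Its summed level was 484 normalized reads per kb, percentile 82.9. The gene lies at chr13:48303744-48599436 on the plus strand. Its coding transcript RB1-002 (ENST00000267163.4), with 27 exons and 928 codons, had a mean normalized read count of 2133 and held 91.0% of the level. The other 2 listed transcripts are short processed transcripts without a coding sequence, which start at bases 48476400 and 48476447, near the end of the coding transcript at 48481890.

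RBL2, the pocket protein of quiescent cells, followed at 300.3 normalized reads per kb, percentile 73.9. The gene lies at chr16:53433977-53491648 on the plus strand. The coding transcript RBL2-001 (ENST00000262133.10), with 22 exons and 1139 codons, had a mean normalized read count of 1072 and held 72.7% of the level. The retained intron transcript RBL2-009 (ENST00000562837.1) held 11.9%, from a mean normalized read count of 26.4, which was 2.21% of the gene's reads. RBL2 shares 609 exonic bases with AKTIP on the opposite strand, which was listed at 242 normalized reads per kb. The use of strand in counting is not stated in the sources used here, so reads from the shared bases cannot be assigned to either gene with certainty. RCBTB2 lies within the span of RB1 on the other strand and was listed at 51.4 normalized reads per kb, with 0 shared exonic bases.

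RBL1, the pocket protein that accumulates in cycling cells, was the lowest of the 3 at 172 normalized reads per kb, percentile 60.7, and RB1 was 2.81-fold above it. The gene lies at chr20:36996349-37095997 on the minus strand. RBL1-001 (ENST00000373664.7), with 22 exons and 1068 codons, held 83.2% of the level, from a mean normalized read count of 815. RBL1-002 (ENST00000344359.7), with 1014 codons, held 10.0%. All 3 listed transcripts of RBL1 are coding.

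**Figure D3:**
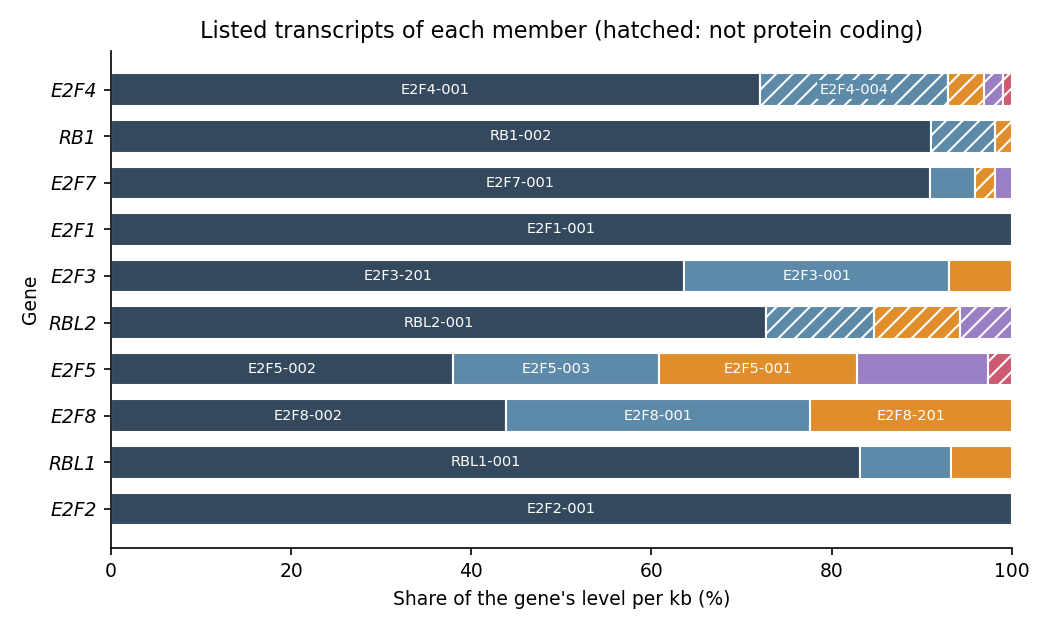
Each bar divides the summed level per kb of 1 member, in per cent, among its listed transcripts, from the largest to the smallest; colours only mark this order, hatching marks transcripts that are not protein coding, and names are given where the segment has room. A single transcript held 100% in E2F1 and E2F2 and over 90% in RB1 and E2F7, whereas E2F5 and E2F8 were divided among several.

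Across the 8 members with more than 1 listed transcript, the leading transcript held a median of 72.4% of the level, against 60.2% over the 10289 listed genes of that kind. It held over 75% in 3 of these 8 members, RB1, E2F7 and RBL1, and in 26.2% of the genes. Reads shared by transcripts of a gene were divided by the authors' counting model, so all these shares are estimates. The median over the members also depends on the scaling by length, and no value over all genes is given without it. Protein-coding transcripts made up 21 of the 32 member transcripts, or 65.6%, against 60.4% of all transcripts. By level, the coding share was 87.6% over the members and 76.9% over the table. Retained intron transcripts held 10.3% of the members' level and 8.90% of the table's, processed transcripts 1.66% and 6.96%, and those marked for nonsense mediated decay 0.412% and 3.97%. Of the 377 normalized reads per kb on retained intron transcripts of the members, 234 were those of E2F4-004, of 757 bases. Every member has a coding transcript, but only 12120 of the 15113 listed genes do. The shares by type over the table are therefore not those of like genes. The median coding share of a member was 98.9%, against 97.2% over 12120 genes with a coding transcript, and the lowest were those of E2F4 and RBL2. The 13 member transcripts under 10% of their gene's level, some of them given above, had mean normalized read counts from 7.58 to 114.

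The DP proteins are the dimer partners of the E2Fs. TFDP1, the main one, was listed at 1011 normalized reads per kb, percentile 92.5, close to E2F4, and its coding share was 73.0%. TFDP2 was listed at 55.6 normalized reads per kb, percentile 36.8, and TFDP3 had no row. E2F6, a repressor that lacks the pocket protein binding region, was listed at 23.1 normalized reads per kb, from a transcript marked for nonsense mediated decay and a retained intron transcript with mean normalized read counts of 14.0 and 12.7. No coding transcript of E2F6 was listed, so its level leaves out any coding mRNA.

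Cyclins and kinases that phosphorylate pocket proteins were listed for 7 of 8 genes, with a median of 234 normalized reads per kb and 6 above the median gene. CCND1, cyclin D1, was the highest at 2443 normalized reads per kb, CCND3 the lowest at 53.4, and CCND2 had no row. Coding transcripts held 69.3% of the level of CCND1 and 47.9% of that of CCND3. Of the inhibitors of these kinases, 5 of 7 were listed, with a median of 346 and 4 above the median gene. CDKN2C (p18) reached 617 normalized reads per kb and CDKN1C (p57) 51.4, whereas CDKN2A and CDKN2B, which encode p16 and p15, had no row.

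The MuvB core joins RBL2 and E2F4 in the DREAM repressor complex of resting cells and later binds MYBL2 and FOXM1 on mitotic genes. All 7 genes of this list had rows, with a median of 121 normalized reads per kb and 4 above the median gene. MYBL2 was the highest at 888 and LIN37, a core subunit, the lowest at 39.5. Coding transcripts held 100% of the level of MYBL2 but 16.3% of that of LIN37. RBBP4, among the 4 above the median gene at 223 normalized reads per kb, had a coding share of 33.3%. All 8 corepressor genes that pocket proteins recruit were listed, with a median of 616.5 normalized reads per kb and 6 above the median gene. RBBP7, a histone-binding chaperone, reached 1649 and SMARCA2, a chromatin remodelling ATPase, 13.1. Coding transcripts held 92.5% of the level of RBBP7 and 100% of that of SMARCA2. The median of this list lay in a wide gap between HDAC3 at 1029 and KDM5A at 204 normalized reads per kb. Only 27.7% of the level of HDAC3 and 62.7% of that of KDM5A was on coding transcripts.

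Among genes that E2Fs are known to activate for DNA synthesis, all 18 were listed and all 18 were above the median gene. Their median was 869.6 normalized reads per kb and their median percentile 90.8, against 310 and 74.6 for the E2F and RB genes themselves. TYMS, thymidylate synthase, was the highest at 3886, and ORC1, a subunit of the origin recognition complex, the lowest at 162 normalized reads per kb. These medians cover listed genes only. The levels include transcripts that are not coding, and coding transcripts held 49.2% of the level of TYMS and 100% of that of ORC1.

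**Figure D4:**
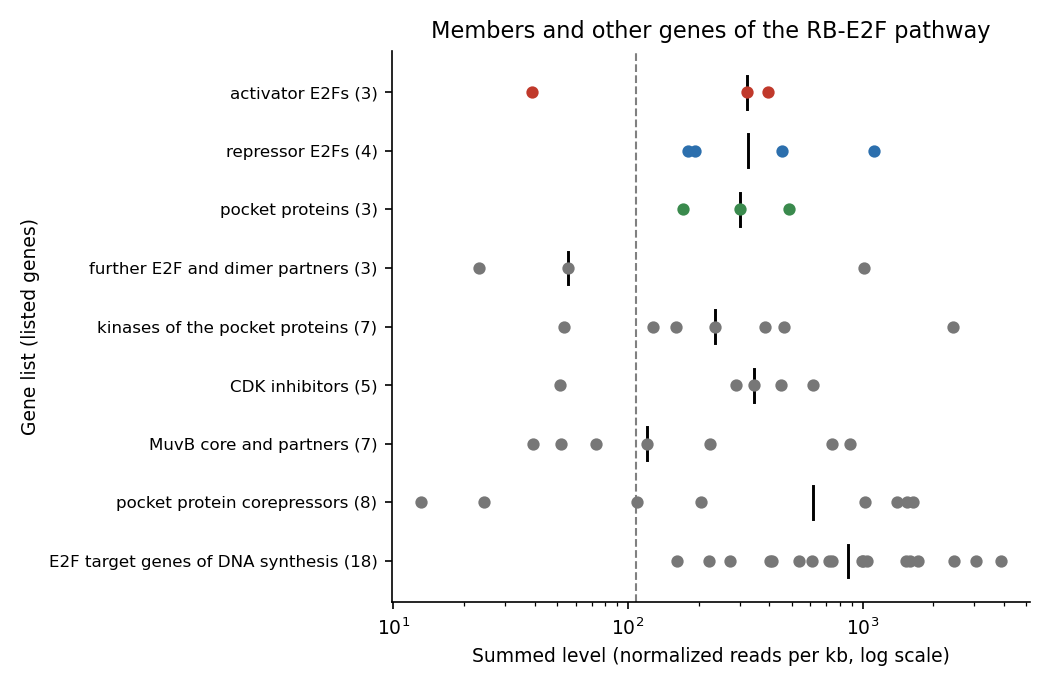
Points give the summed level of each listed gene in normalized reads per kb, on a log scale, by list, with a bar at the median of each list and the median of all listed genes as a dashed line. The E2F target genes of DNA synthesis had the highest median at 869.6 and lay above the dashed line without exception, while the members reached from 39.0 to 1117.

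The labelled cell line was compared with marker genes. The mesenchymal markers were listed for 5 of 5 genes, from CD44 at 427 to VIM at 10135 normalized reads per kb with a median of 2599. Coding transcripts held 37.4% of the level of VIM. Of 6 luminal and epithelial markers, 3 had rows, GATA3 at 29.5, FOXA1 at 39.5 and EPCAM at 43.3, all under the median gene, while ESR1, PGR and CDH1 had none. Of 4 markers of blood and stroma, PECAM1 and COL1A1 were listed at 4.08 and 39.4 normalized reads per kb, and PTPRC and HBB had no row.

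Several E2F genes are known targets of E2Fs, so their promoters were searched for the E2F motif. RefSeq windows from 250 bases before to 50 bases after a start (GRCh38.p14) were found for 8 members, 10 windows in all, and E2F5 and E2F8 had no entry. The letters searched on both strands were TTTCCCGC, TTTCGCGC, TTTGCCGC and TTTGGCGC. At least 1 of them occurred in 4 of 8 member genes, E2F1, E2F2, E2F3 and RBL1, against 3.99% of 27305 genes with a window, and in 4 of 10 member windows against 3.31% of 35116 windows. Among genes listed in the table, 6.61% of 10146 had one. All 3 activators were among the 4. Of the pocket proteins, RBL1 was among them and RBL2 was not. RB1 is counted in the 8, but its window does not cover the start of its coding transcript. The sites are shown because they lie close to the start in each of the 4 genes, with the first base of each motif from 16 to 53 bases upstream. Each is read 5′ to 3′ on the strand of its gene, with the motif in capitals. The first of E2F1 lies at chr20:33686401-33686428 and the second at chr20:33686388-33686415, both on the minus strand, and these overlap in their flanks. That of E2F2 lies at chr1:23531258-23531285 on the minus strand, that of E2F3 at chr6:20401816-20401843 on the plus strand, and that of RBL1 at chr20:37096000-37096029 on the minus strand.
E2F1 first site: tggctctttcGCGGCAAAaaggatttgg
E2F1 second site: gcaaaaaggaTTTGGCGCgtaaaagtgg
E2F2 site: cggcacgacgTTTGGCGCtaaaaaaaaa
E2F3 site: tgaaaagccgGCGGGAAAtccgagtttc
RBL1 pair of sites: gcagatTTTCGCGCgcTTTGGCGCaggtgg
In the first site of E2F1 and in that of E2F3 the motif is read on the strand opposite to the gene. The site of E2F3 lies at the upstream start, that of the transcript with 29.4% of the level. The other window of E2F3, chr6:20403364-20403663, held none. It ends before base 20403679, where the transcript from the internal start begins, so the bases at that start were not searched. RBL1 carries TTTCGCGC and TTTGGCGC side by side.

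None of the letters occurred in the windows of E2F4, E2F7, RBL2 and RB1. The RB1 window covers chr13:48476200-48476499, the internal start of the short processed transcripts, and not that of the coding transcript, so it says nothing of the main RB1 promoter. With a core of 6 letters, with TTCCCG and TTCGCG as its forms next to TTGCCG and TTGGCG, 5 members matched, E2F7 being added, but the core was also in 35.1% of all genes with a window and in 52.9% of those listed in the table. The CCAAT box, CCAAT on either strand, which binds NF-Y, was in the windows of E2F1, E2F3, E2F7 and RBL2, and in 39.7% of all genes with a window and 43.0% of those listed. The 4 genes with the motif of 8 letters stood at 394, 39.0, 320 and 172 normalized reads per kb, so they included the lowest member. Of the 3 highest members, E2F4 and E2F7 had a window at their start without it, and for RB1 that start was not searched.

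HuR, the target of KH-3, binds AU-rich stretches of RNA, many of them in 3′UTRs. The 3′UTR of the most abundant coding transcript of each gene was therefore taken from GENCODE release 44 and searched for AUUUA, the core of AU-rich elements, and for UAUUUAU, its longer form. All 10 members held at least 1 AUUUA, against 72.8% of 11600 genes, and 8 of 10 held UAUUUAU, against 35.1%. The members had a median of 5 AUUUA in 3′UTRs with a median of 1583.5 bases, against 2 in 1260 bases over all genes. Per kb of 3′UTR the medians were 3.75 and 1.73, and 7 of 10 members were above that of all genes. Of the 10 member transcripts used, those of E2F3 and E2F5, 2 in all, have the same length in release 44 as in the table, so for the others the 3′UTR may differ from that of the authors' annotation. Letters in a 3′UTR are not binding of HuR, which was not measured in these libraries. The study sequenced RNA precipitated with HuR from the same line in a separate experiment, which was not used here.

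RB1 and E2F7 had the densest 3′UTRs. RB1 held 12 AUUUA in 1819 bases, or 6.60 per kb, at percentile 95.7 of all genes, and E2F7 held 14 in 2764 bases, or 5.07 per kb, at percentile 90.7. E2F4 followed with 4 in 795 bases, 5.03 per kb, and E2F1 with 6 in 1255 bases, 4.78 per kb, at percentiles 90.4 and 89.2. RBL2 held 6 in 1348 bases, 4.45 per kb. The sparsest was E2F2, with 2 in 3442 bases, 0.581 per kb, which lay at percentile 30.3. E2F8 and RBL1, with 1.68 and 1.66 per kb, were just under the median gene. E2F3 held 9 in 3284 bases, 2.74 per kb, and E2F5 held 2 in 656 bases, 3.05 per kb. These densities were not adjusted for base composition. A and U made up 68.7% of the 3′UTR of RB1 and 64.3% of that of E2F7, at percentiles 90.6 and 72.0 of all genes. For E2F4 and E2F1 they made up 43.5% and 44.1%, at percentiles 13.6 and 14.6.

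**Figure D5:**
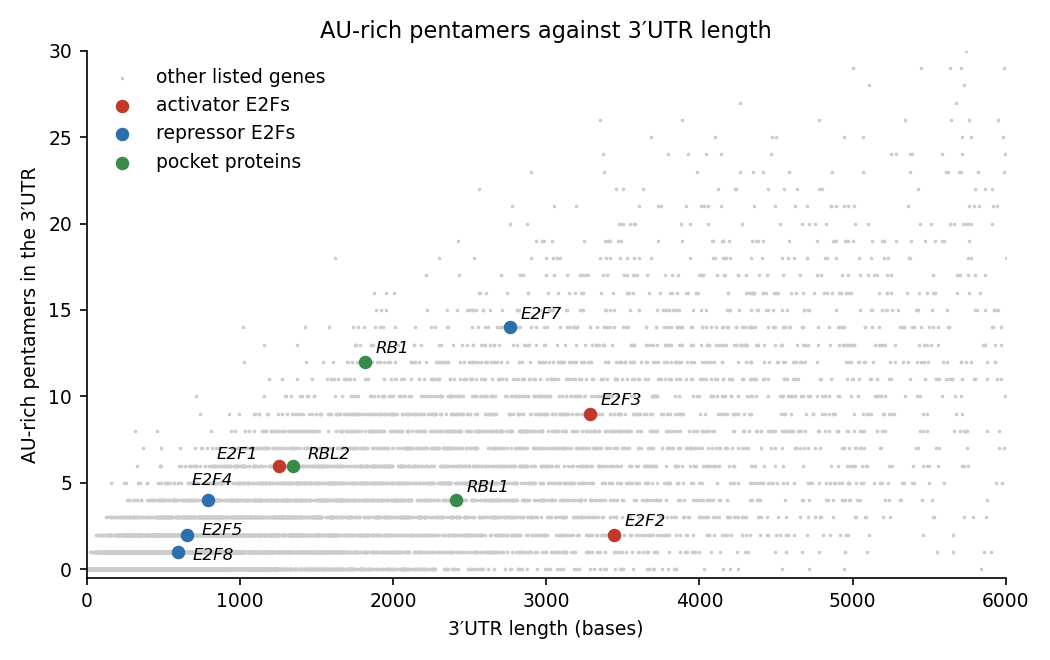
Each point is a gene, with the length of its 3′UTR in bases on the x axis and the number of AU-rich pentamers in it on the y axis; grey points are other listed genes, coloured points the members by role, and 500 genes lie outside the axes. E2F7 and RB1 stood highest among the members at 14 and 12 copies, and E2F2 held 2 in the longest 3′UTR of the family.

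The longer form occurred 3 times in E2F1, 2 times each in E2F3 and RB1, and 1 time each in E2F2, E2F7, E2F8, RBL1 and RBL2, whereas E2F4 and E2F5 held none. Sites of E2F1, RB1 and E2F7 are shown, an activator, a pocket protein and a repressor with dense 3′UTRs. UAUUUAU is in capitals, and each site is read 5′ to 3′ as RNA (GENCODE release 44, hg38). In E2F1, minus strand, they lie at chr20:33676156-33676182 and chr20:33675998-33676024. In RB1, plus strand, they lie at chr13:48480250-48480276 and chr13:48481157-48481183, and in E2F7, minus strand, at chr12:77023523-77023549.
E2F1 upstream site: aauggagcguUAUUUAUuuaucgaggc
E2F1 downstream site: cugggugauuUAUUUAUugggaaagug
RB1 upstream site: uagucauuguUAUUUAUacaagauuga
RB1 downstream site: ggcaauugucUAUUUAUcuuuuauuuu
E2F7 site: ccuaugguguUAUUUAUuuuguuccug
The sites of E2F1 begin at bases 560 and 718 of its 1255-base 3′UTR, those of RB1 at bases 189 and 1096 of 1819, and that of E2F7 at base 476 of 2764. The site of E2F1 at base 560 runs on into a further overlapping copy at base 564.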

How the data were processed

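RNA-seq of MDA-MB-231 cells was used, from 2 DMSO and 2 KH-3 libraries grouped by their titles. The authors prepared mRNA libraries with a TruSeq kit, mapped reads with STAR to GENCODE release 24 transcripts (hg38), estimated reads per transcript with eXpress and compared the conditions with DESeq2 at a q-value cutoff of 0.05. Tool versions are not given in the sources used here.

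The deposited mean normalized read count is a signal per transcript that the authors averaged over libraries. The table's other columns hold the authors' log2 fold change of KH-3 against DMSO with its p-value and q-value. They are the study's own comparison and were not used. With no value per library, no test, spread or depth could be computed.

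Each mean normalized read count was divided by transcript length in kb and summed per gene symbol. Transcripts with at least 10% of their gene's level were named, and from each pathway list the highest and lowest gene and those without a row. HDAC3, KDM5A and RBBP4 were named in addition, to show limits of the values of their lists. Promoter windows came from RefSeq (GRCh38.p14) and 3′UTRs from GENCODE release 44, matched by transcript ID without version. Of the 32 member transcripts, 31 were found, 21 with equal length, but of the 10 whose 3′UTRs are described only 2 had equal length. Coding 3′UTRs were found for 95.7% of genes, 31.4% of them with equal transcript length. Codon counts, exon counts and coordinates are those of release 44, lengths used for levels those of the table. Members and lists were chosen with earlier results of these data known. Computations were tested on simulated data. Python 3.11.15, numpy 2.4.6, pandas 2.3.3 and matplotlib 3.10.9 were used.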

Additional observations from a re-analysis of the deposited data

How the results depend on the processing

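The median share of the leading transcript moved from 72.4% to 86.9% when reads were not scaled by length and to 88.0% over coding transcripts alone, through E2F4 and RBL2. The median summed level of 310 normalized reads per kb became 269, 274, 310 and 211 under the 4 alternatives, within 1.5-fold. E2F4 was highest and E2F2 lowest under all 4, whereas the order between them changed under each, and RB1 and E2F7 swapped with coding transcripts alone. Single levels moved by over 1.5-fold for E2F5 when all reads were divided by the longest transcript, and for E2F3, E2F5 and E2F8 when the transcript with the highest count stood for the gene. The median percentile of 74.6 became 71.5 and 80.4. Members with the motif were 4, or 3 with only TTTCGCGC and TTTGGCGC, which 1.15% of windows hold, and 5 with the core. The median AUUUA count was 5 with the longest 3′UTR of each gene. With equal transcript length in both releases it was 5.5, but over 2 members only, E2F3 and E2F5, which does not test the family. The alternatives for 3′UTRs and for windows of listed genes were chosen after seeing the data. The comparison of member proteins was not run, because no protein sequences were used here. No paired analysis was possible because the table has no value per library, and no library could be left out.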
